A study of Mus musculus with 20 samples.

Results

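The 9 genes described here, Pf4, Ppbp, Itga2b, Gp1ba, Gp1bb, Gp9, Gp5, Vwf and Gp6, are the genes by which megakaryocytes and platelets are usually recognized. They were picked by symbol from the 24315 genes measured in LSK cells and the 24315 measured in MEP cells, and all 9 were found in both tables. LSK cells (Lin- Sca1+ Kit+) hold the stem cells and multipotent progenitors of the bone marrow (BM), and MEP cells (Lin- Sca1- Kit+ CD34-, low or negative for Fcγ receptor II/III) hold the progenitors of megakaryocytes and red cells. PolyA RNA of both populations was sequenced from the same C57BL/6 mice, in 3 WT, 3 Dnmt3a-/-, 2 Bcor-/- and 2 Bcor-/-Dnmt3a-/- (double knockout) libraries per population. The label of 1 Bcor-/- library per population names 2 mice. The Bcor allele lost part of its exons and both genes were deleted by Mx1-Cre, which interferon or pIpC switches on in blood cells and in other tissues, while neither gene was targeted in WT mice, and the study describes the deletion of Dnmt3a in Dnmt3a-/- mice as partial. Bcor encodes a subunit of a polycomb repressive complex, and Dnmt3a encodes a DNA methyltransferase. The study describes the double knockout mice used for RNA-seq as leukemic, but the labels give neither disease stage nor age, so genotype and disease stage cannot be told apart.

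A megakaryocyte grows from a progenitor that also makes red cells, and it can branch off directly from the stem cell, so that some stem cells already carry RNA of this lineage. The surface of a platelet carries the GPIb-IX-V complex, built from the products of Gp1ba, Gp1bb, Gp9 and Gp5, which catches the von Willebrand factor (Vwf) on a damaged vessel wall. Gp6 encodes the collagen receptor, and Itga2b encodes CD41, the α chain of the integrin that binds fibrinogen and links platelets to each other. Pf4 and Ppbp encode chemokines stored in the α granules, and GATA1, FLI1, RUNX1 and NFE2 are the factors that switch these genes on.

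Read counts were not analysed here. Relative to WT replicate 1, depth read from the steps between low values ran from 0.79 to 1.32 in LSK and from 1.0 to 1.6 in MEP. RNA of the deleted genes was still listed in every library, and values per exon were not analysed here, so that these gene values do not check the deletions. Bcor had 22.4 to 23.2 FPKM (fragments scaled to gene length and library size) in Bcor-/- LSK and 24 to 37.4 in double knockout LSK, against 29.5 to 32.4 in WT. Dnmt3a had 11.3 to 16.9 FPKM in Dnmt3a-/- LSK and 10.4 to 10.9 in double knockout LSK, against 16.1 to 19.8 in WT. It was also below WT in Bcor-/- LSK, at 13.9 to 14.1 FPKM, where it was not targeted. In MEP, Bcor had 19.5 to 22.4 FPKM in Bcor-/- and 19.6 to 26.7 in double knockout against 21.3 to 26.9 in WT, which overlap. Dnmt3a had 2.56 to 5.4 in Dnmt3a-/- MEP, below WT at 5.49 to 6.64, but 3.44 and 6.85 in double knockout MEP, so that 1 library labelled double knockout lay above every WT library. In Bcor-/- MEP it was above WT, at 7.56 to 7.65 FPKM. The double knockout libraries stood apart from WT in some genes of the sort. In LSK, Kit was 47.7 and 19.4 FPKM against 148 to 174 in WT, whereas Ly6a, the gene of Sca1, was not lower, at 63.5 and 220.2 against 59.8 to 70.7. Cd34, which was not sorted on in LSK, was 5.87 and 37.3 against 548 to 650. In MEP, Fcgr3, an Fcγ receptor gene, was 63.9 and 27.9 FPKM against 1.21 to 4.54. In bulk RNA, fewer cells of a type and less RNA per cell cannot be told apart, and this holds for every difference given here.

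The promoters of 8 of the 9 members were found in RefSeq, each as 250 bases before and 50 after the start of the gene. They were searched on both strands for short words of 3 factor families. For the GATA family the first word was AGATAA, and the other word, which differs from it in the first letter only, was TGATAA. One of these words occurred in 4 of the 8 promoters and in 18.6% of all 32851 promoters of the table. For the ETS family, to which FLI1 belongs, the first word was CGGAAG, and the other word, which differs from it in the first letter only, was AGGAAG. One of these occurred in 6 promoters and in 46.5% of all. The RUNX family was searched with a single word, TGTGGT, which occurred in 1 promoter and in 16.8% of all, while words of both the GATA and the ETS family occurred together in 3 promoters and in 7.7% of all. The matches are letters in a window and show no binding, and no match overlapped another. The promoters of the 4 members whose values the results turn on are given 5′ to 3′ on the strand of the gene, with every match on either strand in capitals. Pf4 (chr5:90772185-90772484, plus strand, GRCm38.p6) fell furthest of the members in double knockout MEP, Gp5 (chr16:30310732-30311031, minus strand) rose in Bcor-/- cells and fell in double knockout MEP, and Itga2b (chr11:102469834-102470133, minus strand) and Gp9 (chr6:87777820-87778119, plus strand) fell in double knockout LSK.
Pf4: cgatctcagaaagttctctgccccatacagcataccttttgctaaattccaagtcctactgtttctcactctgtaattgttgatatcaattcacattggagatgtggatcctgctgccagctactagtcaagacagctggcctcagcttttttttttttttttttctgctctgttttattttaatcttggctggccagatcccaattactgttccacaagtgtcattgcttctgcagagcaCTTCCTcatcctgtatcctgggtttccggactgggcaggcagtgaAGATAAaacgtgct
Gp5: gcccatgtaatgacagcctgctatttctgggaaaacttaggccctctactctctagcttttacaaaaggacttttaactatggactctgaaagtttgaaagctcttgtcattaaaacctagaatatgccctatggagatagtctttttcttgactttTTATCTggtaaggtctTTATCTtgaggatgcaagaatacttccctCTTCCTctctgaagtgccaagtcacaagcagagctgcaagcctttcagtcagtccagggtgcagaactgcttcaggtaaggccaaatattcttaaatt
Itga2b: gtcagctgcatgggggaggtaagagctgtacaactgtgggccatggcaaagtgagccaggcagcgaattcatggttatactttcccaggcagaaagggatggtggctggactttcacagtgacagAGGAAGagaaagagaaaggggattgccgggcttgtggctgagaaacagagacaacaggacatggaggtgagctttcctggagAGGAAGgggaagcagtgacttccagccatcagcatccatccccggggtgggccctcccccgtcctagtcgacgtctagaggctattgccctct
Gp9: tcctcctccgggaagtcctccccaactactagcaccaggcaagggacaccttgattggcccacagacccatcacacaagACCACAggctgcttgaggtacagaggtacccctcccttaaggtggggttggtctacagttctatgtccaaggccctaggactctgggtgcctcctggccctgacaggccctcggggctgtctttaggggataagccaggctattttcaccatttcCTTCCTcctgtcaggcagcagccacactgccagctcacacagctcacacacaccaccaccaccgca
Pf4 holds 1 ETS word and, after the start site, 1 GATA word. Gp5 holds 2 GATA words and 1 ETS word, Itga2b holds 2 ETS words, and Gp9 holds 1 ETS word and the single RUNX word of the set. Gp1ba, with 2 GATA words and 1 ETS word, and Gp1bb, with 2 ETS words, are not printed, nor are Gp6, with 1 GATA word, and Ppbp, with none of these words.

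In double knockout cells Pf4 and Vwf fell against WT in both populations, Itga2b and Gp9 in LSK and Gp5 in MEP. The other members did not pass the test, and the sign of the difference turned with the library left out for Ppbp in LSK and Gp9 in MEP. A gene was called changed at an unadjusted p under 0.05 in limma's moderated test and a fold change above 1.5 on the log2(FPKM + 1) scale, and adjusted p-values are Benjamini-Hochberg values over all genes tested in a population. Gp6 had a mean under the filter of 1 FPKM in both populations and was not tested. The 4 that fell in LSK were 4 of 8 members, where 13.3% of all 11952 genes were called lower and 28.3% were called in either direction. The 3 that fell in MEP were 3 of 8, where 12.4% of all 10933 genes were called lower and 30.9% were called in all. More members were called there with quantile normalization or median centring, where 34.2% and 33.9% of all genes were. The median difference of the 8 members was -0.74 in LSK and -0.88 in MEP, beside 0.02 over all genes in both. The number called in MEP was 7 without WT replicate 2, where 25.8% of all genes were called, and 7 without double knockout replicate 2, where 35.8% were. The full fit assumes 1 spread per gene for all 4 genotypes, also for the 2 double knockout libraries. A fit without 1 of the 2 double knockout or Bcor-/- libraries leaves that genotype with 1 library, which is then assumed to vary like the other genotypes. The 2 double knockout libraries were not alike. Of all genes, 49.6% in LSK and 50.5% in MEP had double knockout and WT libraries that did not overlap, against 7 of 8 and 3 of 8 members. In replicate 1 all 8 members lay below every WT library in both populations, and in replicate 2 it was 7 of 8 in LSK but 3 of 8 in MEP. The count of MEP replicate 1 includes Ppbp, listed at 0, and Gp1bb, in effect 0, and such values can be failed estimates.

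**Figure D1:**
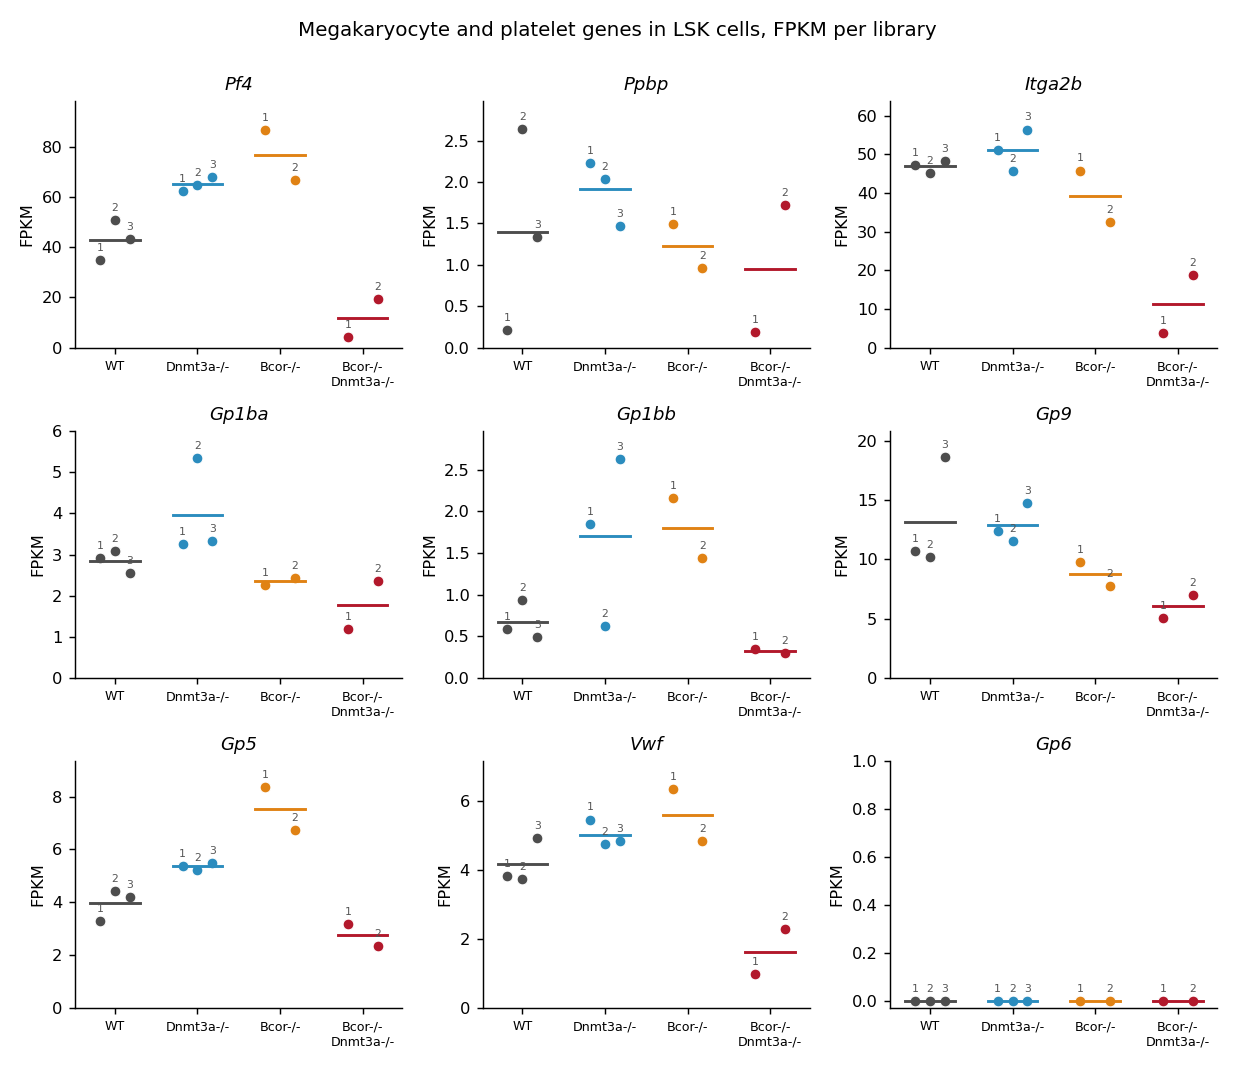
FPKM of the 9 members in LSK cells, with 1 point per library (numbers are replicates) and a line at the mean of each genotype. Both double knockout libraries lie below every WT library for Pf4, Itga2b, Gp1ba, Gp1bb, Gp9, Gp5 and Vwf, Gp5 lies highest in Bcor-/-, and Gp6 is listed at 0 in all 10 libraries.

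The α granule gene Pf4 was the member with the widest range. In LSK it had 34.9, 50.8 and 43.3 FPKM in the WT libraries, 62.2, 64.7 and 68.0 in the Dnmt3a-/- libraries, 86.8 and 66.6 in the Bcor-/- libraries, and 4.08 and 19.4 in double knockout. Both single knockouts lay above all WT libraries and the double knockout below them. The fall in double knockout LSK was -2.10 ± 0.46 (log2 difference ± SE, adjusted p = 0.00895). It was -1.10 without double knockout replicate 1 and -3.10 without replicate 2. In Bcor-/- LSK the difference was 0.82 ± 0.46 (adjusted p = 0.309) and was not called.

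In MEP, Pf4 had 199, 56.5 and 243 FPKM in the WT libraries, 238, 100.5 and 143 in the Dnmt3a-/- libraries, 72.5 and 122 in the Bcor-/- libraries, and 7.68 and 8.09 in double knockout. WT and Dnmt3a-/- spread over a wide range and overlapped, both Bcor-/- libraries lay inside it, and the double knockout libraries lay close together far below. The difference between double knockout and WT was -3.99 ± 0.60 (adjusted p = 0.00212), the second lowest of the 10933 genes tested. Without WT replicate 2 it was -4.64.

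Ppbp encodes the other platelet chemokine and starts 5′ of Pf4 on the same strand of chromosome 5, with 2371 bases between the genes (GENCODE, GRCm38). It was much lower, with 0.210 to 2.64 FPKM in WT LSK and 0.315 to 3.18 in WT MEP. In double knockout it had 0.186 and 1.73 FPKM in LSK and 1.03 in MEP replicate 2, and it was listed at 0 in MEP replicate 1, which can be a failed estimate. The genotypes overlapped in every comparison and Ppbp was called in none, in contrast to its neighbour, although a difference between both genes was not tested. Cxcl5, the next chemokine gene of this cluster in the lists, was at most 0.252 FPKM in any library.

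**Figure D2:**
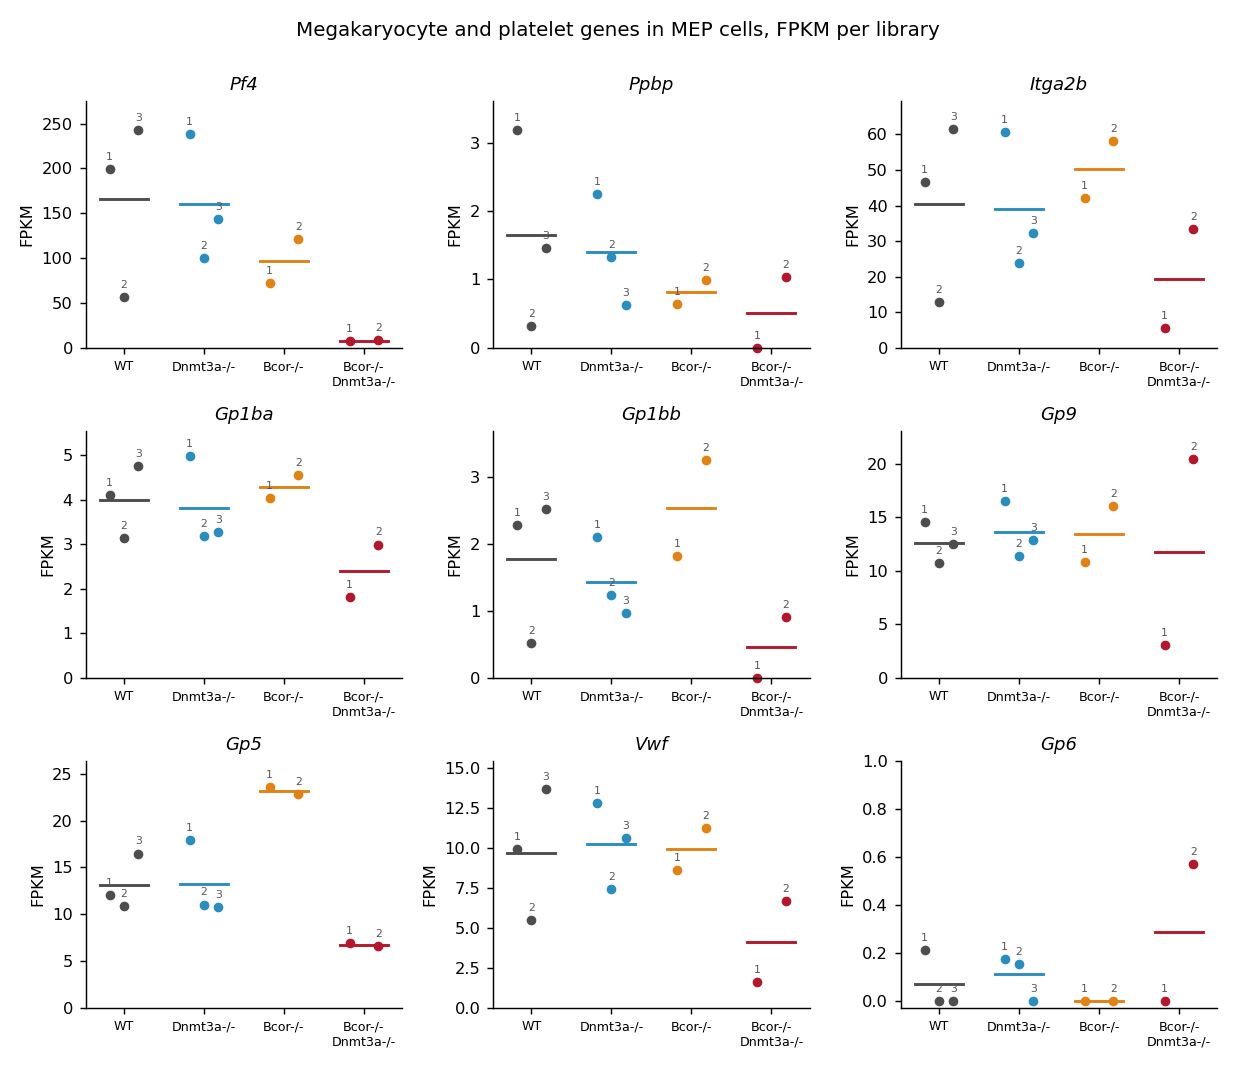
FPKM of the 9 members in MEP cells, with 1 point per library (numbers are replicates) and a line at the mean of each genotype. Pf4 is below 9 FPKM in both double knockout libraries, whereas Itga2b, Gp9 and Vwf are low in double knockout replicate 1 only, and Gp5 is highest in both Bcor-/- libraries.

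Itga2b, the gene of CD41, had 47.2, 45.2 and 48.3 FPKM in the WT LSK libraries, 51.2, 45.7 and 56.4 in the Dnmt3a-/- libraries, 45.8 and 32.6 in the Bcor-/- libraries, and 3.67 and 18.9 in double knockout. The first 3 genotypes overlapped and the double knockout lay below them all. The fall was -2.31 ± 0.47 (adjusted p = 0.00625), with -1.27 without double knockout replicate 1 and -3.36 without replicate 2. In MEP it had 46.6, 12.9 and 61.5 FPKM in the WT libraries, 60.8, 24 and 32.1 in the Dnmt3a-/- libraries, 42.2 and 58.3 in the Bcor-/- libraries, and 5.47 and 33.4 in double knockout. Only double knockout replicate 1 lay outside the WT range there, and the difference of -1.21 ± 0.81 (adjusted p = 0.271) was not called. It was -2.42 and was called without double knockout replicate 2, -1.87 and called without WT replicate 2, and -0.01 without double knockout replicate 1. The gene of its partner chain, Itgb3, was not called in any comparison, with 4.97 to 6.6 FPKM in the WT LSK libraries and 2.74 and 15.1 in double knockout LSK.

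Of the GPIb-IX-V complex, Gp9 and Gp5 were called against WT, Gp9 in double knockout LSK and Gp5 in 3 comparisons. Gp9 had 10.8, 10.2 and 18.6 FPKM in the WT LSK libraries, 12.4, 11.6 and 14.8 in the Dnmt3a-/- libraries, 9.78 and 7.72 in the Bcor-/- libraries, and 5.04 and 7.01 in double knockout, so that both Bcor genotypes lay below WT. The fall in double knockout was -0.98 ± 0.26 (adjusted p = 0.0197), and the difference in Bcor-/- of -0.50 ± 0.26 (adjusted p = 0.265) was called only without WT replicate 2, at -0.65. In MEP, Gp9 had 14.6, 10.8 and 12.5 FPKM in WT, 16.5, 11.4 and 12.9 in Dnmt3a-/-, and 10.8 and 16.0 in Bcor-/-. The double knockout libraries lay on either side of all of these, at 3.06 and 20.5 FPKM. The difference of -0.53 ± 0.57 (adjusted p = 0.495) was not called, and it became 0.67 without double knockout replicate 1 and -1.73 without replicate 2, so MEP give no direction for Gp9.

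Gp5, the subunit that thrombin cleaves from the complex, was the only member called higher in Bcor-/- cells. In LSK it had 3.29, 4.42 and 4.18 FPKM in the WT libraries, 5.37, 5.20 and 5.5 in the Dnmt3a-/- libraries, 8.35 and 6.73 in the Bcor-/- libraries, and 3.17 and 2.32 in double knockout. The 4 genotypes did not overlap, in the order Bcor-/-, Dnmt3a-/-, WT and double knockout. The rise in Bcor-/- was 0.78 ± 0.18 (adjusted p = 0.0377), and Gp5 was the single member of 8 called in this comparison, where 7.2% of all genes were called higher and 13.2% in all. Pf4 (0.82 ± 0.46) and Gp1bb (0.74 ± 0.36) differed by about as much in Bcor-/- LSK, with a larger SE, and were not called. The Bcor-/- and WT libraries did not overlap for 5 of 8 members, against 54% of all genes. In double knockout LSK the difference of -0.41 ± 0.18 (adjusted p = 0.122) was not called.

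In MEP, Gp5 had 12, 10.9 and 16.5 FPKM in the WT libraries, 17.9, 11 and 10.8 in the Dnmt3a-/- libraries, 23.6 and 22.8 in the Bcor-/- libraries, and 6.87 and 6.55 in double knockout. WT and Dnmt3a-/- overlapped, Bcor-/- lay above both and double knockout below both. Again it was the single member of 8 called higher in Bcor-/-, by 0.80 ± 0.23, where 1.23% of all genes were called higher and 2.76% in all, and the single one whose libraries did not overlap with WT, against 30.8% of all genes. That call did not hold after adjustment over all genes (adjusted p = 0.518). The fall in double knockout was -0.85 ± 0.23 (adjusted p = 0.0248). The difference of Gp5 between Bcor-/- and WT stayed positive in every fit that left out 1 library, at 0.65 to 0.92 in LSK and 0.68 to 0.96 in MEP.

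Gp1ba, which holds the binding site for von Willebrand factor, was called against WT in neither population. It had 2.91, 3.08 and 2.55 FPKM in the WT LSK libraries and 1.19 and 2.36 in double knockout LSK, which lay below all WT libraries, with a difference of -0.50 ± 0.26 (adjusted p = 0.174). In MEP it had 4.11, 3.13 and 4.75 FPKM in the WT libraries and 1.82 and 3.0 in double knockout, again below all WT libraries, with -0.56 ± 0.24 (adjusted p = 0.107). Without double knockout replicate 2 both differences were called, at -0.81 in LSK and -0.81 in MEP, and without WT replicate 2 the MEP difference was -0.69 and was called. Its single knockout levels were 2.25 to 5.35 FPKM in LSK and 3.19 to 4.98 in MEP.

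Gp1bb (chr16:18620317-18622403, minus strand, GRCm38) is uncertain, because Sept5 on the same strand overlaps 1902 of its bases and fragments there could be counted for either gene. It had 0.589, 0.935 and 0.489 FPKM in the WT LSK libraries, 1.85, 0.625 and 2.63 in the Dnmt3a-/- libraries, 2.16 and 1.44 in the Bcor-/- libraries, and 0.341 and 0.301 in double knockout. Both Bcor-/- libraries lay above WT and both double knockout libraries below, without a call in either comparison. In MEP it had 2.28, 0.513 and 2.51 FPKM in WT, 1.81 and 3.25 in Bcor-/-, and 0.911 in double knockout replicate 2, while the value in replicate 1, 5.5e-08, is in effect 0. Sept5 had 2.42, 8.58 and 2.06 FPKM in WT LSK, 12.3 and 17.2 in Bcor-/- LSK and 5.20 and 9.21 in double knockout LSK. It rose by 1.74 ± 0.49 in Bcor-/- LSK (adjusted p = 0.0639) and by 2.28 ± 0.41 in double knockout MEP (adjusted p = 0.00434), where it had 3.56 and 10.02 FPKM against 0 to 0.843 in WT. In double knockout MEP, Sept5 was therefore higher while Gp1bb was lower in replicate 1 and inside the WT range in replicate 2.

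Vwf, the ligand of the complex, had 3.81, 3.74 and 4.91 FPKM in the WT LSK libraries, 5.46, 4.74 and 4.84 in the Dnmt3a-/- libraries, 6.35 and 4.82 in the Bcor-/- libraries, and 0.975 and 2.27 in double knockout. The fall in double knockout, which lay below all other libraries, was -1.01 ± 0.24 (adjusted p = 0.0126), and -0.65 without double knockout replicate 1. In MEP, Vwf had 9.94, 5.47 and 13.7 FPKM in the WT libraries, 12.8, 7.39 and 10.6 in the Dnmt3a-/- libraries, 8.60 and 11.2 in the Bcor-/- libraries, and 1.59 and 6.64 in double knockout. Replicate 2 lay inside the WT range, and the fall of -1.19 ± 0.48 did not hold after adjustment (adjusted p = 0.0898). The call was lost without WT replicate 1 (-1.13), without WT replicate 3 (-0.92) and without double knockout replicate 1 (-0.40), and the difference was -1.97 without double knockout replicate 2. Vwf is also made by endothelial cells. Their genes Cdh5 and Cldn5 were listed at 0 in all WT and Bcor-/- MEP libraries, and in LSK Cdh5 was 0.0634 to 0.688 FPKM in WT but 0.531 and 10.8 in double knockout. Of the endothelial list, which includes Vwf itself, 1 of 10 genes rose and 5 fell in double knockout LSK, with sums of 78.8 to 220.1 against 227 to 257 FPKM in WT, and 1 of 7 rose and 3 fell in double knockout MEP, with sums of 29.6 to 182 against 64.1 to 91.1. Their part in the values of Vwf was not tested.

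Gp6, the collagen receptor, and Tubb1, the tubulin of the platelet rim, were low in every genotype. Gp6 was listed at 0 in all 10 LSK libraries and in 6 of 10 MEP libraries, with 0.211 FPKM in WT replicate 1, 0.173 and 0.154 in 2 Dnmt3a-/- libraries and 0.572 in double knockout replicate 2, and a listed 0 can be a failed estimate. Tubb1 was at most 0.480 FPKM in MEP and 1.47 in LSK. On the per-length scale of FPKM, Pf4 and Itga2b led the members in WT LSK (mean 43.0 ± 7.98 and 46.9 ± 1.57, SD, n = 3), followed by Gp9 (13.2 ± 4.72). In WT MEP the order was Pf4 (166 ± 97.5), Itga2b (40.3 ± 24.9), Gp5 (13.1 ± 2.97) and Gp9 (12.6 ± 1.9), and each overlapped with the next.

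**Figure D3:**
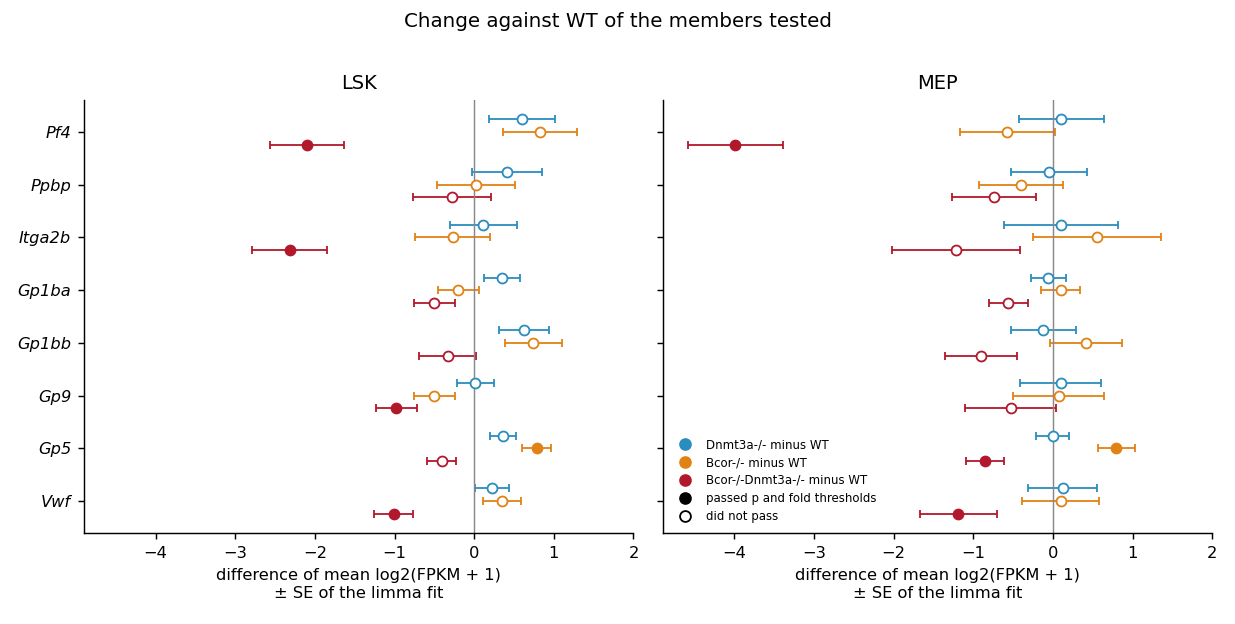
Difference of the mean log2(FPKM + 1) between each mutant and WT for the 8 members tested, with bars for the SE of the limma fit and filled points for genes that passed both thresholds. In double knockout all points are below 0 in both populations, while Gp5 in Bcor-/- is the only filled point above 0.

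Dnmt3a loss alone called no member in either population by limma, where 0.443% of all genes were called in LSK and 0.412% in MEP, and no member had an unadjusted p under 0.05. In LSK all 3 Dnmt3a-/- libraries lay above every WT library for Pf4, Gp1ba and Gp5, which is 3 of 8 members, against 9.61% of all genes whose libraries did not overlap in either direction. In MEP none of 8 did, against 10.4% of all genes. In LSK, 1 member was called without Dnmt3a-/- replicate 2, where 0.293% of all genes were. The order of the 3 other genotypes differed among members. By mean FPKM in LSK, Bcor-/- came first for Pf4, Gp1bb, Gp5 and Vwf, although it overlapped with Dnmt3a-/- for all of these but Gp5, and it came after WT for Ppbp, Gp1ba, Gp9 and Itga2b, of which Ppbp and Itga2b overlapped with WT. The double knockout had the lowest mean FPKM of all 8 tested members in both populations, although its libraries overlapped with those of other genotypes for several of them.

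Against Bcor-/- alone, Pf4, Itga2b, Vwf and Gp5 were lower in double knockout LSK. In LSK 5 of 8 members were lower and none higher, where 14.8% of all genes were called lower and 30.6% in all, and 6 of 8 did not overlap, against 59.3% of all genes. Pf4 differed by -2.92 ± 0.50 (adjusted p = 0.00323), Itga2b by -2.04 ± 0.52 (adjusted p = 0.0178), Vwf by -1.36 ± 0.26 (adjusted p = 0.00542) and Gp5 by -1.19 ± 0.20 (adjusted p = 0.00271). Gp1bb differed by -1.07 ± 0.39 (adjusted p = 0.0668), a call lost without Bcor-/- replicate 1 (-0.89). Without double knockout replicate 1 and replicate 2, the differences were -1.92 and -3.92 for Pf4 and -1.0 and -3.09 for Itga2b. These comparisons and those with WT share the double knockout libraries.

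In MEP 5 of 8 were lower, where 11.3% of all genes were called lower and 27.9% in all, and 6 of 8 did not overlap, against 59.5% of all genes. After adjustment 2 of 8 were called, against 20.3% of all genes. These were Pf4, by -3.42 ± 0.66 (adjusted p = 0.00809), and Gp5, by -1.65 ± 0.26 (adjusted p = 0.00352), and both were called without each library in turn. The other calls were Gp1bb, by -1.32 ± 0.50 (adjusted p = 0.0845), Vwf, by -1.28 ± 0.53 (adjusted p = 0.108), and Gp1ba, by -0.66 ± 0.27 (adjusted p = 0.104). Gp1bb was lost without Bcor-/- replicate 2 (-1.02) and double knockout replicate 1 (-0.85), Vwf without either Bcor-/- library (-1.46 and -1.11) or double knockout replicate 1 (-0.50), and Gp1ba without the same 3 libraries (-0.73, -0.59 and -0.41). Vwf was -2.06 without double knockout replicate 2. The number called was 3 without Bcor-/- replicate 1 (22.9% of all genes), 2 without Bcor-/- replicate 2 (20.7%) or double knockout replicate 1 (39.8%), and 7 without double knockout replicate 2 (34.7%). Itga2b, at -1.76 ± 0.88 (adjusted p = 0.17), was called without double knockout replicate 2, at -2.97, and was -0.56 without replicate 1.

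The proportion of Pf4 to Itga2b, both of them early genes of the lineage, differed between genotypes in MEP. It was looked at after the values had been seen and is given without a test. The WT libraries had 4.28, 4.37 and 3.95 and the Dnmt3a-/- libraries 3.91, 4.19 and 4.46, a narrow range although the level of Pf4 differed more than 4-fold between these libraries. In Bcor-/- MEP it was 1.72 and 2.09, and in double knockout MEP 1.40 and 0.242. All 4 libraries labelled Bcor-/- or double knockout therefore lay below the other 6. In LSK the WT libraries ranged from 0.738 to 1.12 and the Dnmt3a-/- libraries from 1.21 to 1.42, with 1.89 and 2.04 in Bcor-/- and 1.11 and 1.03 in double knockout, so that Bcor-/- lay highest there and double knockout inside the WT range. In double knockout MEP replicate 2, Pf4 was low while Itga2b, Gp1bb, Vwf, Ppbp and Gp9 were inside or above the WT range.

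**Figure D4:**
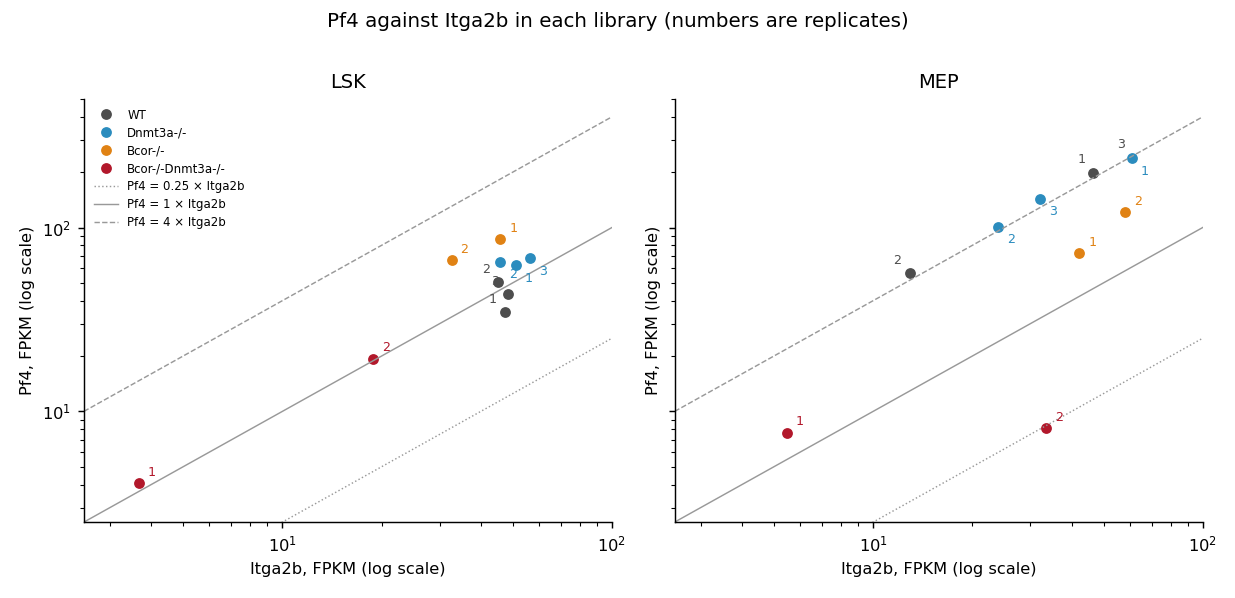
Pf4 against Itga2b in each library on log scales, for LSK (left) and MEP (right), with lines of equal proportion. In MEP the 6 WT and Dnmt3a-/- libraries lie along the line of 4 to 1, the Bcor-/- libraries near 2 to 1, and double knockout replicate 2 near the line of 0.25 to 1.

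The tables of the 2 populations were normalized separately, so their levels were set side by side without a test. Gp5 and Vwf were higher in MEP than in LSK in all 10 pairs of libraries from the same mice, Pf4 and Gp1ba in 8, Gp9 and Gp1bb in 6, Itga2b in 5 and Ppbp in 4. The pairs in which Pf4 was lower in MEP were Bcor-/- replicate 1 and double knockout replicate 2. Whether the effect of a genotype differed between populations was tested by subtracting the MEP from the LSK value within each pair. For the double knockout, 1 of 8 members was called, against 28% of all 10773 genes tested. This was Pf4, which fell more in MEP by 1.89 ± 0.79 on the log2 scale (adjusted p = 0.114 by limma, not called after adjustment). It was 0.92, 1.5 and 1.51 and was not called without double knockout replicate 2, WT replicate 1 and WT replicate 3, and it was 2.67 without WT replicate 2 and 2.86 without double knockout replicate 1. For Bcor-/-, no member was called, against 10.8% of all genes, and no member had an unadjusted p under 0.05. Without WT replicate 2 the number was 2, against 9.36% of all genes.

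Pairs of members differed in how closely they followed each other. Across the 10 LSK libraries the correlation of log2(FPKM + 1) was 0.97 between Pf4 and Vwf, 0.93 between Pf4 and Itga2b and 0.93 between Vwf and Itga2b, but 0.31 between Gp5 and Gp9 and 0.22 between Gp1ba and Gp1bb. Across the 10 MEP libraries it was 0.95 between Vwf and Itga2b, 0.94 between Gp1bb and Itga2b and 0.94 between Gp1ba and Gp1bb, but 0.33 between Gp5 and Gp9. The median correlation of a member with the others was 0.50 to 0.75 in LSK and 0.68 to 0.83 in MEP. These values are descriptions, since libraries share genotypes. The genes whose pattern came nearest to the mean of the 8 standardized members were, over 10 LSK libraries, Zfp316 (Pearson r = 0.97), Gspt2 (0.96), Sdpr (0.96), Thnsl1 (0.96) and Tmem44 (0.95). Over 10 MEP libraries they were Gata2 (0.97), Egr1 (0.96), Angpt1 (0.95), Rab37 (0.95) and Trpc6 (0.94). WT replicate 2 had the lowest value among WT MEP libraries for all 8 members, and its Gata2 was also the lowest, at 18.6 FPKM against 34.2 to 49.2.

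Beyond the 9 members, 5 lists of genes used by platelets were counted, and these lists moved in both directions. They were not limited to genes specific to platelets, and some of their genes also stand in the marker lists of other cells. A separate list of megakaryocyte and platelet markers includes several members. Of its 10 markers tested, 6 fell and 1 rose in double knockout LSK, and 4 fell and 0 rose in double knockout MEP. In double knockout LSK, where 13.3% of all genes were called lower and 15% higher, 12 of 25 receptors and surface proteins fell and 6 rose. F2rl3, a thrombin receptor, fell by 3.53, and Tspan33 rose by 3.27. Of 20 transcription factors 6 fell and 5 rose. Gata2 fell by 3.08, Meis1 by 3.88 and Nfe2 by 1.41, whereas Gata1 rose by 1.93. Fli1 was not called, with 29.1 and 53.4 FPKM against 33.9 to 36.1 in WT, nor was Runx1, with 26.6 and 14.6 against 24.8 to 28.1.

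Of 26 granule and secreted proteins 7 fell and 1 rose in double knockout LSK, with Angpt1 lower by 4.78, Ctla2a lower by 3.55 and Pdgfa higher by 1.73 (adjusted p = 0.0672). Leaving out either double knockout library raised the number called, both in this list and over all genes. The call of Pdgfa was lost without WT replicate 1 (1.62) and without double knockout replicate 2 (0.45). Of 19 cytoskeleton and proplatelet genes 5 fell and 4 rose, with Tuba8 lower by 1.54 and Parvb and Tpm4 higher by 2.29 and 1.82. Of 21 signalling and metabolism genes 6 fell and 4 rose, with Gng11 lower by 3.03, Rgs18 by 2.39 and Gucy1a3 by 2.22. Without double knockout replicate 1, Ctla2a was -2.05, Tuba8 was -0.91 and Pdgfa was 3.02.

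In double knockout MEP, where 18.5% of all genes were called higher and 12.4% lower, the lists again moved in both directions. Of 22 receptors and surface proteins 5 fell and 4 rose. Treml1, a receptor of the α granule membrane, fell from 3.50 to 9.12 FPKM to 0.186 and 0.448 (-2.56 ± 0.47, adjusted p = 0.00462), while Cd36 rose by 3.24 and Fcer1g, the signalling partner of Gp6 that myeloid cells also use, rose by 2.86. Of 20 transcription factors 2 fell and 4 rose, among them Ets1 by 3.32, Lyl1 by 1.29 and Fli1 by 1.27. Gata1 was not called, with 71.4 and 239 FPKM against 170 to 225 in WT. Of 22 granule and secreted proteins 4 fell and 7 rose, with F13a1 higher by 3.50, Ctla2b higher by 1.96 and Angpt1 lower by 2.15. Of 18 cytoskeleton genes 2 fell and 4 rose, with Tpm4 and Actn1 higher by 2.28 and 2.23, and of 21 signalling genes 2 fell and 7 rose, with Plcg2, Rasgrp2 and Syk higher by 1.54, 1.42 and 1.35, of which Rasgrp2 did not hold after adjustment (adjusted p = 0.0816). Some of these counts depended on the scaling. With quantile normalization 3 receptors rose and 8 fell, and 3 transcription factors rose and 4 fell, which turned their balance. In that fit 5 granule genes rose and 4 fell, 4 cytoskeleton genes rose and 2 fell, and 4 signalling genes rose and 3 fell. Of all 10933 genes 3738 (34.2%) were called there, 1461 of them higher. The share of all calls that were higher went from 59.8% to 39.1%.

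Without double knockout replicate 1, 6 of these genes were not called in MEP, namely Fli1 (1.15), Angpt1 (-1.57), Ctla2b (1.18), Plcg2 (0.84), Rasgrp2 (0.51) and Syk (0.79). Fli1 kept most of its difference, and Tpm4 was 1.13. Without double knockout replicate 2, F13a1 was 2.26, Tpm4 3.42 and Rasgrp2 2.32. Ctla2b (1.54) and Rasgrp2 (1.28) were not called without WT replicate 2 either, nor Rasgrp2 (1.41) without WT replicate 1. More transcription factors were called without double knockout replicate 2, as were more of all genes. The number of signalling genes called was 5 without WT replicate 1, where 28.1% of all genes were called against 30.9% in full.

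**Figure D5:**
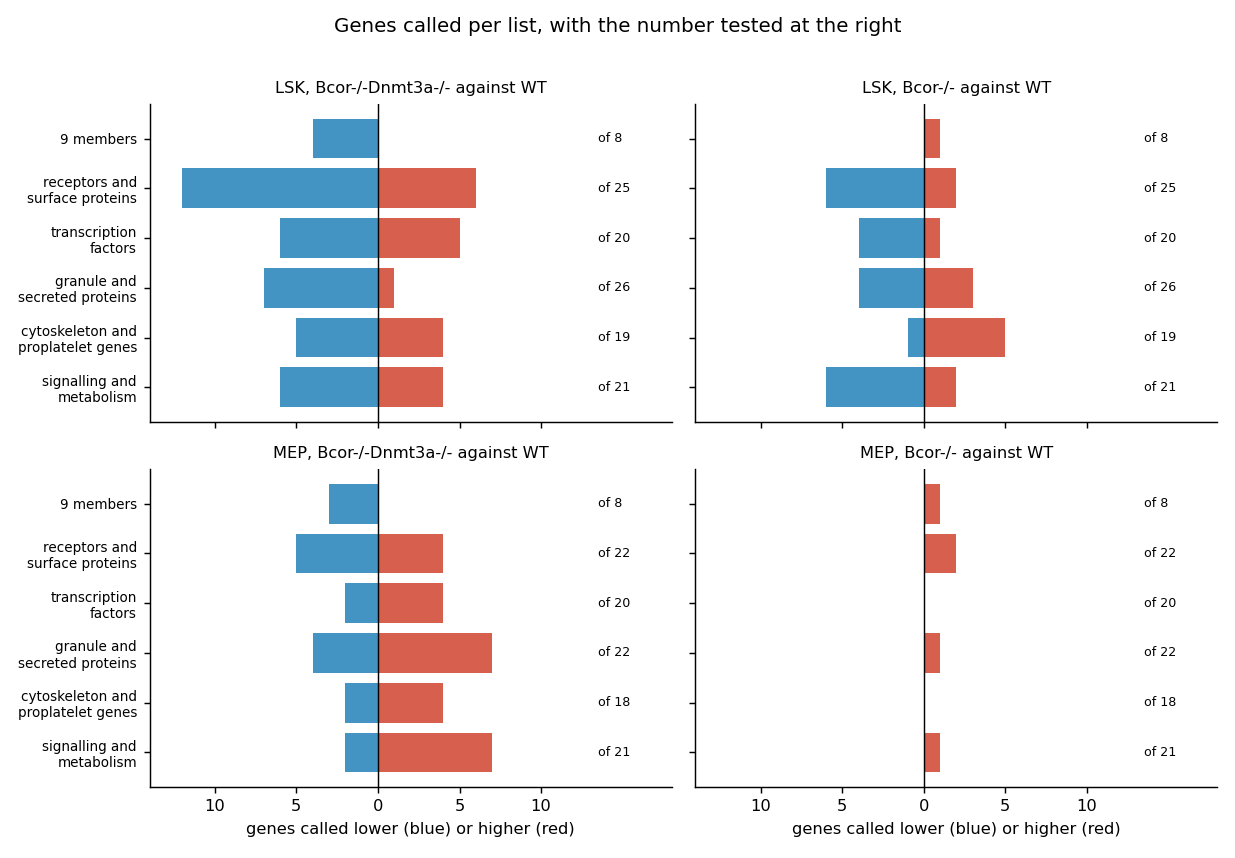
Number of genes called lower (left of 0) or higher (right of 0) against WT in the members and in 5 further lists of platelet genes, with the number tested at the right of each bar. In double knockout LSK 12 of 25 receptors and surface proteins fell, in double knockout MEP 7 of 21 signalling genes rose, and in Bcor-/- MEP at most 2 genes of a list were called.

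In Bcor-/- LSK, Gp5 was the only member called, and 7.2% of all genes were called higher and 6.03% lower. There 2 receptors and surface proteins rose and 6 fell. Tspan33 was higher by 1.33, and Slamf1 and Selp, the gene of the granule protein P-selectin, were lower by 1.40 and 1.32. Among transcription factors 1 rose and 4 fell. Gata1 rose from 7.83 to 12.9 FPKM to 18 and 34.3 (1.14 ± 0.27, adjusted p = 0.0395), while Gata2 and Runx1 were lower by 0.99 and 0.59 (adjusted p = 0.089 and 0.116). Of the cytoskeleton genes 5 rose and 1 fell. The tubulin genes Tuba8 and Tuba4a were among them, Tuba8 at 39.5 and 49.3 FPKM against 12.7 to 21.1 in WT (1.44 ± 0.34, adjusted p = 0.0384) and Tuba4a at 393 and 523 against 179.5 to 213 (1.20 ± 0.14, adjusted p = 0.0111). Of granule and secreted proteins 3 rose and 4 fell, with F13a1 higher by 1.35 and Ctla2a and Ctla2b lower by 1.54 and 1.42, and none of this list was called after adjustment (adjusted p = 0.164, 0.197 and 0.0682 for these 3). Of signalling genes 2 rose and 6 fell, with Lat, Rgs18 and Tbxas1 lower by 0.90, 0.88 and 0.86 (adjusted p = 0.107, 0.0269 and 0.0856).

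The calls of Tspan33, Slamf1, Selp, Gata1, Tuba8, Tuba4a and Rgs18 in Bcor-/- LSK held without each library in turn, with Gata1 at 0.70 without Bcor-/- replicate 2. Gata2 (-0.83), Ctla2b (-0.96), Lat (-0.27) and Tbxas1 (-0.76) were not called without Bcor-/- replicate 2, and Lat was -1.54 without Bcor-/- replicate 1. Runx1 was called without WT replicate 3 and lost without any of the other 4 libraries (-0.63 to -0.55). F13a1 was lost without any library but WT replicate 2 (1.06 to 1.65), and Ctla2a was lost without each of the 5 (-1.87 to -1.20). Without Bcor-/- replicate 2 fewer genes of the receptor, transcription factor, granule and signalling lists were called, as were fewer of all genes. The granule list also had fewer calls when any other library was left out. In Bcor-/- MEP 2 receptors rose, Esam by 1.01 and Fcer1g by 0.66, 1 granule gene rose, Vegfa by 0.68, and 1 signalling gene rose, Prkcq by 0.71, none with an adjusted p under 0.05. Esam was called only in full and without WT replicate 3 (0.71 to 1.07 otherwise), and Fcer1g was lost without WT replicate 1 (0.55) and Bcor-/- replicate 1 (0.53). Vegfa (0.48, 0.72 and 0.64) and Prkcq (0.52, 0.63 and 0.79) were lost without WT replicate 2, Bcor-/- replicate 1 and Bcor-/- replicate 2. Without Bcor-/- replicate 1 the calls of the receptor, granule and signalling lists were lost, and fewer of all genes were called.

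Markers of other cell types moved with the double knockout. In LSK all 17 erythroid markers tested rose, and their summed level was 7982 to 25298 FPKM against 499 to 675 in WT. Of 11 B and T lymphoid markers 9 rose, with sums of 1258 to 3447 against 44.3 to 102.5 FPKM, and of 11 stem cell markers 9 fell, with sums of 186 to 383 against 1167 to 1375. All 5 mast cell and basophil markers tested fell, from 114 to 254 FPKM down to 12.7 to 45.5. No erythroid, lymphoid or stem cell marker was at 0 in all libraries of either genotype. The part of these cells in the lower values of Pf4, Itga2b, Vwf and Gp9 was not tested.

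In double knockout MEP 8 of 12 granulocyte and monocyte markers rose, with sums of 6777 to 14869 against 321 to 794 FPKM, and 7 of 8 macrophage markers rose, with sums of 28.3 to 857 against 6.82 to 10.5. After adjustment 8 granulocyte and monocyte markers but only 2 macrophage markers were called. Of 9 lymphoid markers 7 rose, with sums of 131 to 2818 against 31.9 to 175. Of 17 erythroid markers 6 rose and 2 fell, with sums of 7324 and 105539 against 6199 to 9176, so that 1 double knockout library lay inside the WT range and the other far above it. Their part in the values of Pf4, Gp5 and Vwf was not tested either. In Bcor-/- LSK, where Gp5 rose, 6 of 12 granulocyte and monocyte markers rose, with sums of 18774 to 26668 against 3754 to 13492, and 10 of 17 erythroid markers rose, with sums of 1032 to 1590 against 499 to 675. In the same comparison 4 of 11 stem cell markers fell, with sums of 603 to 891 against 1167 to 1375. There 3 of 5 mast cell and basophil markers and 3 of 10 endothelial markers fell as well. Their sums were 63.1 to 107 against 114 to 254 and 109 to 158 against 227 to 257. After adjustment 3 stem cell, 1 mast cell and basophil and 2 endothelial markers were called. In Bcor-/- MEP, where Gp5 also rose, no erythroid, lymphoid, macrophage or stem cell marker was called. Of 7 endothelial markers 1 rose, which was Esam. Of 12 granulocyte and monocyte markers 3 rose and 1 fell, with sums of 511 to 872 against 321 to 794. None of these markers was called after adjustment. The part of these cells in the values of Gp5 was not tested.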

How the data were processed

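RNA-seq of LSK and MEP cells sorted from the same mice was analysed as 2 tables of 10 libraries each. Per the submitters' processing notes, STAR 2.5.1b, SAMtools 1.9, Cufflinks 2.2.1 and the mouse build mm9 were used, and the files the authors deposited that were used here hold FPKM per gene. Read counts were not analysed here. Cufflinks divides fragments among overlapping genes and scales by gene length and library, so that depth behind a value is unknown apart from the relative depth read from steps between low values, and intervals from counts were not made. The 2 tables were normalized separately. All sample columns were mapped to samples (0 were left out).

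Genes averaging 1 FPKM or more in a population (10 libraries) were tested with limma 3.58.1 (R 4.3.3) on log2(FPKM + 1), with a mean-variance trend and all 4 genotypes in the fit. Fold changes on this scale understate changes of low genes. Calls used the thresholds of the study (unadjusted p under 0.05 and more than 1.5-fold), whose main methods text names neither the test nor an adjustment, and adjusted p-values (Benjamini-Hochberg) over all genes are given beside them. With 2 against 3 libraries, an exact permutation test of a single gene could not reach p = 0.05. LSK and MEP values were paired by mouse, as the labels give it. P-values and SE rest on 1 moderated spread per gene, shared by the libraries of all 4 genotypes. They do not measure the spread between the 2 double knockout libraries, which was wide for several members. In each population 1 Bcor-/- library names 2 mice. The fit was run on simulated data in which all genotypes had the same spread, as the fit assumes. That run therefore cannot show how the fit does where the spread differs between genotypes.

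The members and lists were chosen with earlier results of these data known. Named genes were the 9 members, up to 3 called genes per list with the largest change and no overlap between groups, and always Itgb3, Gata1, Fli1, Runx1, Nfe2, Tubb1 and Sept5. Some genes that the rule named are not reported here. Genes most like the members were ranked by Pearson correlation with the mean of the standardized members. Promoters were taken from RefSeq (GRCm38.p6), where 8 of 9 members matched by symbol, and gene positions from GENCODE on GRCm38, not the build of the files. Alternatives were another pseudocount (0.1), testing without the filter or with 5 FPKM as the lowest mean, quantile normalization, median centring, fits of only the genotypes compared, no trend, a variance per genotype, a replicate block, calls at adjusted p, and leaving out each library.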

Additional observations from a re-analysis of the deposited data

Results flagged for a closer look

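Pf4 was flagged because its difference between double knockout and WT itself differed between the populations. The log2 difference was -2.10 in LSK and -3.99 in MEP, and the fall was larger in MEP by 1.8923 ± 0.79 (adjusted p = 0.114 by limma over all genes, unadjusted p under 0.05). In MEP both double knockout libraries were below all 3 WT libraries, and in LSK both were as well. The test did not hold after adjustment, and the value ranged from 0.92 to 2.86 when 1 library was left out. Groups of 2 or 3 libraries are too small for a test of single libraries.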

How the results depend on the processing

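For members called or lying apart in a comparison, together with Itga2b, Gp9 and Vwf in double knockout MEP and without the comparisons of Dnmt3a-/-, 391 values kept their direction and side of the threshold, 42 lost a call, 19 gained one and 1 reversed under the alternatives. The last was Gp9 in double knockout MEP (-0.53), which ranged from -1.73 to 0.67 when 1 library was left out. Over all tested members and all 10 comparisons, 57 of 1126 values changed sign, none of them called as reported, and 24 of these were in Dnmt3a-/- MEP. The 4 calls in double knockout LSK were 3 at a minimum of 5 FPKM, where 3 members were tested, and with a variance per genotype, and otherwise 4 or 5. In Bcor-/- LSK the 1 call became 2 with no filter, with quantile normalization and with no trend, 3 with only the genotypes compared and with a variance per genotype, 0 at a minimum of 5 FPKM, and 1 to 2 without 1 library. In Dnmt3a-/- LSK the 0 calls became 1 with only the genotypes compared, 2 with a variance per genotype, and 0 to 1 without 1 library. Of all genes, 0.293% to 0.628% were called without 1 library, against 0.443% in full. Double knockout against Bcor-/- in LSK (5) gave 2 at a minimum of 5 FPKM. Double knockout MEP (3) gave 5 with a pseudocount of 0.1, quantile normalization or median centring, 1 with a variance per genotype, and 2 to 7 without 1 WT library. Of all genes, 30.9% were called there in full, 34.2% with quantile normalization and 33.9% with median centring. The share was 25.8% to 30.6% without 1 WT library. Bcor-/- MEP (1) gave 0 at adjusted p and 1 to 2 without 1 library. Double knockout against Bcor-/- in MEP (5) gave 3 at a minimum of 5 FPKM, 2 with only the genotypes compared, a variance per genotype or adjusted p, and 2 to 7 without 1 library. The difference between populations gave for the double knockout (1) 0 with a pseudocount of 0.1, no filter, a variance per genotype or adjusted p, 2 with quantile normalization, and 0 to 2 without 1 library, and for Bcor-/- (0) 0 to 2 without 1 library. For the other alternatives the share of all genes called is not given here. These counts alone therefore do not separate a change in the members from one over all genes. The cause was not tested.

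The share of calls that were higher was 59.8% in double knockout MEP, 39.1% with quantile normalization and 42.2% with median centring, where the median of all genes moved from 0.02 to -0.17 and -0.14. Against Bcor-/- it was 59.4%, 36.2% and 41.2% in MEP, and 51.6%, 44.1% and 41.4% in LSK, and in double knockout LSK against WT it was 53%, 45% and 44.2%. For the difference between populations it moved from 40.5% to 51.3% with quantile normalization, and in Dnmt3a-/- MEP from 48.9% to 65.9%.

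Replicate numbers were not treated as pairing libraries of different genotypes, which came from different mice. Correlations were taken over genes after the mean of the genotype had been subtracted from each value, so they are not those of whole libraries. For same-numbered libraries they were -0.06 to 0.09 in LSK and -0.19 to 0.34 in MEP (13 pairs each). In a genotype with 2 libraries these deviations mirror each other, so the correlations are not independent. Several same-numbered MEP pairs were above 0.1, and differently numbered MEP libraries ran from -0.44 to 0.31. A replicate block gave 2 calls for double knockout against Bcor-/- in MEP and 2 for double knockout MEP. Depth is unknown, so members near 1 FPKM, Ppbp and Gp1bb, are the least certain.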
